A study of Homo sapiens with 18 samples.

Results

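Densely clustered accessible regions are stretches of T47D chromatin in which many separate open elements lie close together. A region was counted as dense when at least 6 other regions of the table had their midpoint within 10 kb of its own midpoint, on chromosomes 1 to 22 and X. The rule uses positions only and no measured level. It took 882 of 132604 regions, or 0.665%, and all 882 passed the filter on low counts. The table came from Omni-ATAC-seq, an assay in which the enzyme Tn5 tags accessible DNA with adapters, so that more open chromatin yields more reads. T47D is an established human breast carcinoma line known for its high level of progesterone receptor. All cells were held in medium with almost no serum before treatment and then received 10 nM R5020 (promegestone, a synthetic progestin), 0.1 nM R5020 or DMSO vehicle, for 6 h or for 18 h. The labels give 3 libraries in each of the 6 groups, 18 in all. The cells' identity was not checked against marker genes, because regions carry no gene names here.

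Most accessible regions are promoters or enhancers, the DNA elements where transcription factors bind. Several of them packed into a short stretch are known from strongly transcribed loci and from enhancer clusters, which in many cell types lie beside the genes that set cell identity. The progesterone receptor is a transcription factor that a progestin switches on; it binds hormone response elements, together with factors that hold chromatin open, and recruits remodelling enzymes. Another kind of crowding is known from the assembly itself: the DNA that borders centromeres is rich in repeats, and reads from repeat copies that the assembly lacks can land on the copies it has.

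The 882 dense regions formed 236 clusters, a cluster being a run of dense regions with consecutive midpoints no more than 10 kb apart. Of these, 80 clusters held a single dense region, 17 held at least 10, and the largest held 29. Dense regions had 6 to 12 neighbours (median 6), against a median of 1 over all regions, and neighbouring dense regions of a cluster lay a median of 1.67 kb apart. Their median width was 412 bp (138 to 2764 bp), against 386 bp over all regions. Chromosome 10 held 94 of them, chromosome 4 held 88, chromosome 11 held 80 and chromosome 8 held 76, while chromosome 13 held 0. The share of a chromosome's regions that were dense was highest on chromosome 21 (1.61%), chromosome 4 (1.55%) and chromosome 10 (1.25%). Just inside the limit, the 526 regions with exactly 6 neighbours had a median width of 398 bp and a median vehicle level of 3.74 CPM, read counts scaled to the size of the library. Just outside it, the 1571 regions with exactly 5 neighbours had a median width of 375 bp and a median vehicle level of 2.98 CPM.

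Positions split the clusters into 2 kinds. On each chromosome the longest stretch without any region was taken as a landmark; in hg19 such stretches lie at centromeres and the short arms of acrocentric chromosomes, where the assembly has blocks of unknown sequence. Within 2 Mb of these stretches lay 285 of the 882 dense regions (32.3%), against 3.05% of all regions, and these 285 will be called pericentromeric here. They made up 38 clusters and included 12 of the 17 clusters with at least 10 dense regions. The other 597 dense regions lay elsewhere, in 198 clusters, of which 75 held a single dense region. This division was chosen after the positions had been seen and rests on position alone.

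The 2 kinds differed in level and in how far libraries of the same group spread. The median vehicle level was 10.1 CPM in pericentromeric dense regions, 3.48 CPM in dense regions elsewhere and 2.13 CPM in all regions tested. Per kilobase of region, the same medians were 24.5, 8.43 and 5.74 CPM. The median SD of log2 CPM between libraries of a group was 0.80 in pericentromeric dense regions, 0.34 in dense regions elsewhere and 0.35 in all regions. Away from the landmark stretches, dense regions thus spread between libraries about as much as all regions did.

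The share of a library's counts that fell in pericentromeric dense regions varied more between libraries of a group than between groups. At 6 h it was 0.574, 0.574 and 1.10% with vehicle, 0.384, 0.864 and 0.517% with 0.1 nM, and 0.748, 0.659 and 0.634% with 10 nM. At 18 h it was 0.742, 0.900 and 1.21% with vehicle, 0.621, 1.19 and 2.03% with 0.1 nM, and 0.461, 1.38 and 2.03% with 10 nM. Groups overlapped at both times, and the 2 libraries at 2.03% were the 2 with the fewest counts in regions (8865035 and 8756311), while the library with the most (39984217, replicate 1 of 10 nM at 18 h) stood at 0.461%. At 18 h libraries with more counts had the lower share, with small departures. There, vehicle replicate 3 stood at 1.21% with 15735470 counts and replicate 2 of 0.1 nM at 1.19% with 14072153. The order was less close at 6 h, where vehicle replicates 1 and 2 both stood at 0.574% with 11468476 and 29348455 counts. The part of depth in the share was not tested. In dense regions elsewhere the share ran only from 0.681 to 1.03% over all 18 libraries. Counts of calls without single libraries are therefore given beside the results.

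**Figure D1:**
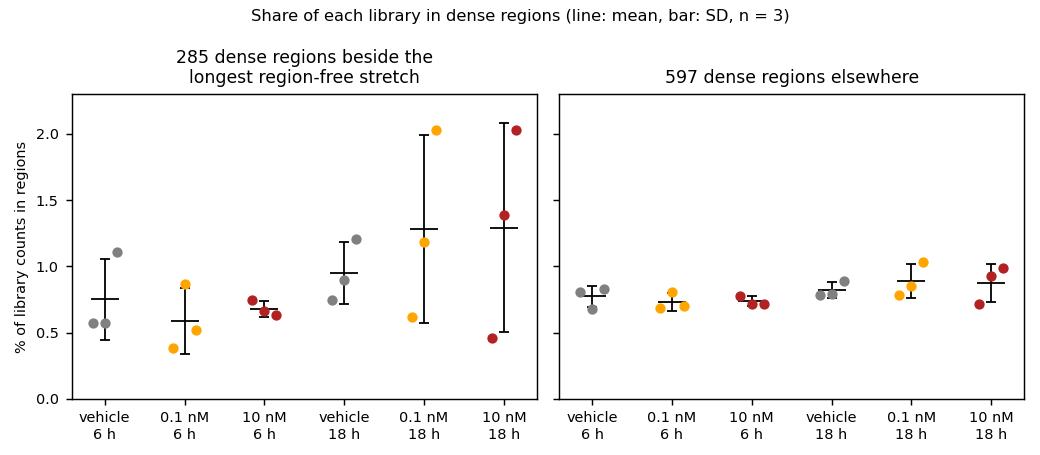
Percent of each library's counts in regions that fell in the 285 pericentromeric dense regions (left) and in the 597 dense regions elsewhere (right). Each point is a library, the line the group mean and the bar the SD of 3 libraries; the left panel spreads from 0.384 to 2.03%, the right panel from 0.681 to 1.03%.

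The largest clusters were all pericentromeric. The 6 with the most dense regions were chr10:39093301-39153050 (29 regions), chr4:49098220-49155637 (26), chr1:143410200-143458014 (18), chr10:42360551-42400728 (18), chr4:49287873-49319256 (16) and chr21:10765792-10805549 (15), in hg19 coordinates as the table gives them. The summed counts of the 29 regions on chromosome 10 stood at 131, 232 and 486 CPM with vehicle, 100, 351 and 223 CPM with 0.1 nM and 267, 267 and 275 CPM with 10 nM at 6 h. At 18 h they stood at 273, 341 and 514 CPM with vehicle, 210, 501 and 907 CPM with 0.1 nM and 130, 554 and 869 CPM with 10 nM. The 3 libraries of 10 nM at 18 h thus spanned a wider range than the groups' means did, and the groups overlapped. The log2 fold change of the summed cluster for 10 nM over vehicle was -0.07 ± 0.58 (SE) at 6 h and 0.46 ± 0.58 at 18 h, neither of which passed the test (adjusted p = 0.950 and 0.625, edgeR's quasi-likelihood test with Benjamini-Hochberg adjustment). None of the other 5 passed it either; their log2 fold changes at 6 h lay between -0.17 and 0.66. In the cluster on chromosome 1, however, 3 of the 18 regions were called higher with 10 nM at 6 h.

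A region was called at an adjusted p under 0.05 in edgeR's quasi-likelihood test, fitted on the whole table with Benjamini-Hochberg adjustment over all 132304 regions tested. With 10 nM for 6 h, 124 dense regions (14.1%) were higher than with vehicle and 82 (9.30%) were lower, against 16.7 and 8.42% of all tested regions. The median log2 fold change was -0.04 over dense regions and -0.05 over all regions tested. Among the called, the median was 1.75 for the higher and -1.11 for the lower dense regions (1.93 and -1.13 over all regions). Called gains of at least 4-fold numbered 48 of the 882 dense regions, against 10249 of the 132304 regions tested. Nearly all the calls lay elsewhere: 117 higher (19.6%) and 81 lower (13.6%) of the 597, against 7 higher and 1 lower of the 285 pericentromeric regions. The median SE of the log2 fold change was 0.33 elsewhere and 0.58 in the pericentromeric regions. In libraries of many cells, more cells with a region open and a wider opening in each cell cannot be told apart. Leaving out 1 library moved the count of higher calls to between 88 and 128. The count of lower calls fell to 51 without replicate 1 of 10 nM, 51 without its replicate 2, and 50 without vehicle replicate 1.

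With 10 nM for 18 h, 103 dense regions were higher than with vehicle and 60 were lower, against 12.8 and 7.56% of all tested regions. Of the 597 dense regions elsewhere, 93 were higher and 58 lower; of the 285 pericentromeric ones, 10 were higher and 2 lower. The median log2 fold change over dense regions was 0.32, against 0.01 over all regions tested. It was 0.40 over the pericentromeric regions and 0.12 over those elsewhere. The mean share of counts in pericentromeric dense regions was 1.29 ± 0.789% with 10 nM and 0.949 ± 0.236% with vehicle at 18 h (SD, n = 3), and the part of this in the shifted median was not tested. Without vehicle replicate 1 the higher calls numbered 64, and without vehicle replicate 2 the lower calls numbered 39. Without any other library of the 2 groups, both counts stayed within 1.5 times of those given.

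The 2 times use separate vehicle libraries. Of the 124 dense regions higher with 10 nM at 6 h, 84 were also called higher at 18 h, which is 67.7% of the 6 h calls and 81.6% of the 18 h calls. For lower regions the shared calls numbered 46, or 56.1% of the 6 h calls and 76.7% of the 18 h calls. Calls in opposite directions numbered 0. Over all regions tested, the shared calls made up 60.8% of the higher and 58.3% of the lower calls at 6 h. Of the 18 h calls they made up 79.2 and 64.9%. Over all regions, 16 of the 22119 higher and 1 of the 11143 lower calls at 6 h were opposite at 18 h. A call at 1 time only does not show that the response differed between times; that was tested as an interaction, and 0 dense regions passed (51 at an unadjusted p under 0.05), against 0.00151% of all regions tested. DESeq2 called 1, the region chr15:99415682-99416331 described below, and edgeR's quasi-likelihood test called the same region without replicate 1 of 10 nM at 18 h (adjusted p = 0.0460). For the response to 0.1 nM the interaction test called 0 dense regions (19 at an unadjusted p under 0.05, 0 by DESeq2, 0% of all regions). Vehicle at 18 h set against vehicle at 6 h also gave 0 calls (26 at an unadjusted p under 0.05, 0 by DESeq2, 0% of all regions).

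The lower dose changed few dense regions. With 0.1 nM for 6 h, 5 dense regions were higher than with vehicle and 1 was lower, against 0.949 and 0.241% of all tested regions; all 6 lay elsewhere. With 0.1 nM for 18 h, 14 were higher and 2 were lower, against 1.74 and 0.698%. These small counts turned on single libraries. At 6 h the higher calls numbered 2 without replicate 1 or without replicate 2 of 0.1 nM, and 3 without any of the 3 vehicle libraries in turn. The lower call was lost without any 1 of the 3 libraries of 0.1 nM and without vehicle replicate 1 or 2, and there were 4 lower calls without vehicle replicate 3. At 18 h the higher calls numbered 7 and 9 without replicates 1 and 2 of 0.1 nM and 8 without vehicle replicate 1 or 2, and 1 lower call was left without replicate 2 or 3 of 0.1 nM or without vehicle replicate 1 or 2.

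Set against 0.1 nM directly, 10 nM gave 104 dense regions higher and 50 lower at 6 h, against 15.1 and 5.25% of all tested regions. At 18 h, 10 nM gave 44 higher and 36 lower, against 6.67 and 4.22%. These comparisons share their 10 nM libraries with those against vehicle. At 6 h the lower calls numbered 27 and 31 without replicates 1 and 3 of 0.1 nM, and 26 and 33 without replicates 1 and 3 of 10 nM. At 18 h the higher calls numbered 25 and 26 without replicates 1 and 2 of 0.1 nM and 28 without replicate 1 of 10 nM, and the lower calls 16 without replicate 1 of 0.1 nM and 23 without replicate 1 of 10 nM.

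The share of regions called moved with the number of neighbours, and not in the same way at the 2 kinds of place. Elsewhere, the share higher with 10 nM at 6 h was 14.4% of regions with 0 neighbours, 22.4% with 5, 21.5% with 6 and 16.7% with 7 or 8. The share lower was 8.74% with 0 neighbours, 10.7% with 5, 13.5% with 6 and 14.7% with 7 or 8. The median vehicle level was 1.90 CPM with 0 neighbours, 2.92 CPM with 5, 3.204 CPM with 6 and 3.84 CPM with 7 or 8, and its part in the shares was not tested. Of the 18 regions elsewhere with 9 or more neighbours, 0 were higher and 5.56% were lower. Beside the region-free stretches the share higher was 11.4% with 0 neighbours, 14.5% with 2, 4.17% with 5, 0.971% with 6 and 4.84% with 7 or 8, so the shares did not fall steadily.

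**Figure D2:**
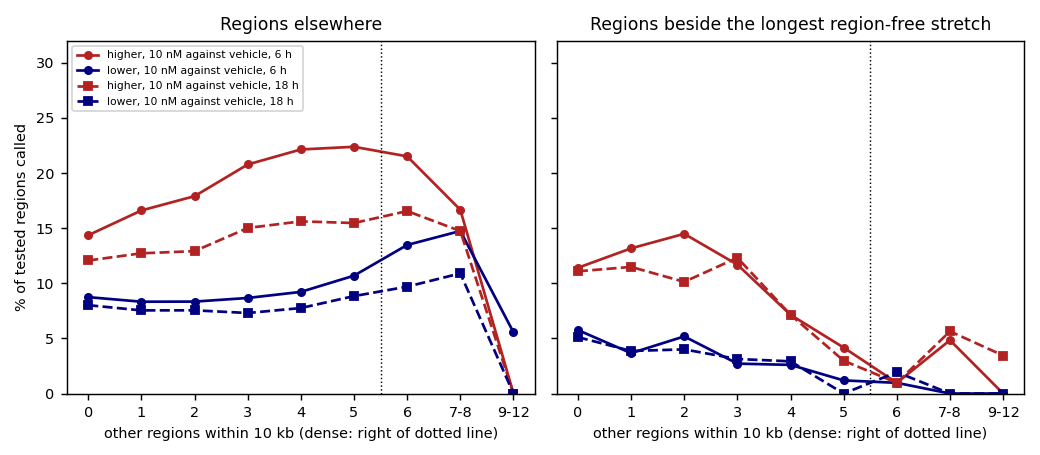
Percent of tested regions called higher (red) or lower (blue) with 10 nM than with vehicle, at 6 h (circles, solid lines) and 18 h (squares, dashed lines), by the number of other regions within 10 kb. Regions elsewhere are on the left and those within 2 Mb of the longest region-free stretch on the right; dense regions lie right of the dotted line. Elsewhere the share lower at 6 h is 8.74% with 0 neighbours and 14.7% with 7 or 8; beside the stretches the share higher at 6 h is 11.4% with 0 neighbours, 0.971% with 6 and 4.84% with 7 or 8.

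Summing the counts of the dense regions of each cluster gave 1 value for each cluster. Neighbours that were not themselves dense were left out of the sums. In the 80 clusters with a single dense region, the sum is that region alone. With 10 nM for 6 h, 47 of 236 clusters were higher and 23 were lower in the same test, against 16.8 and 8.44% of the rows of that table; at 18 h, 36 were higher and 16 lower, against 12.9 and 7.6%. All calls at 6 h lay among the 198 clusters elsewhere, and at 18 h 1 of the 38 pericentromeric clusters was higher. With 0.1 nM, 3 clusters were higher and 1 lower at 6 h (against 0.967 and 0.249%), and 9 were higher and 2 lower at 18 h (against 1.77 and 0.703%). Without 1 library, the lower clusters of 10 nM at 6 h numbered 14 and 15 without its replicates 1 and 2, and 11 and 13 without vehicle replicates 1 and 2. At 18 h they numbered 9 without replicate 2 of 10 nM, and 10 and 9 without vehicle replicates 1 and 2. The clusters higher with 0.1 nM at 6 h numbered 1 without any 1 of its own 3 libraries or without vehicle replicate 1, and 0 without vehicle replicate 2 or 3. The cluster lower there was lost without replicate 2 or 3 of 0.1 nM or vehicle replicate 1, and 3 were lower without vehicle replicate 3. At 18 h the clusters higher with 0.1 nM numbered 4 and 5 without its replicates 1 and 2 and 4 without vehicle replicate 1 or 3, and those lower 0 without its replicate 1 or vehicle replicate 1, and 1 without its replicate 2 or 3 or vehicle replicate 2.

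**Figure D3:**
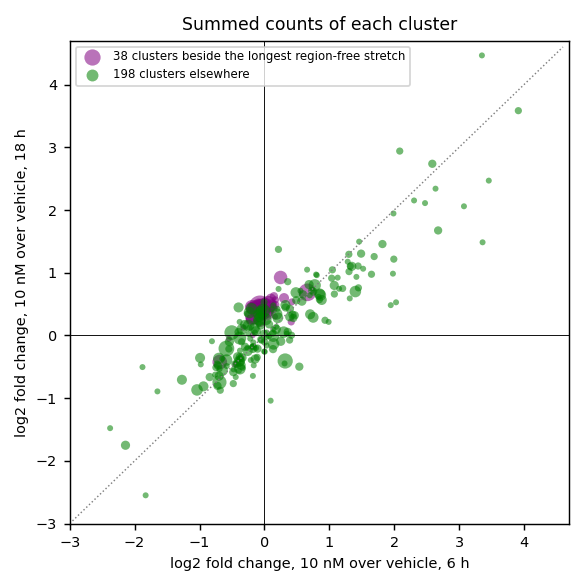
Log2 fold change of the summed counts of each of the 236 clusters, 10 nM over vehicle, at 6 h (horizontal) and at 18 h (vertical). Purple marks the 38 pericentromeric clusters and green the 198 elsewhere, the area of a point grows with the number of dense regions, and the dotted line marks equal change; the pericentromeric clusters lie between -0.69 and 0.66 at 6 h, those elsewhere between -2.38 and 3.91.

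Members of a cluster did not all move alike. With 10 nM for 6 h, 48 clusters held at least 2 called regions: in 23 of them the calls were all higher, in 10 all lower, and in 15 both directions occurred. At 18 h the same count was 33 clusters, with 15 all higher, 7 all lower and 11 mixed. In the 87 clusters elsewhere with at least 3 dense regions, the median SD of the log2 fold change within a cluster was 0.62 at 6 h, while the SD of the cluster means was 0.80. In the 26 such pericentromeric clusters the median SD within a cluster was 0.19 and the SD of the cluster means was 0.18.

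The changes of pairs up to 5 kb apart were more alike than those of pairs 10 to 20 kb apart. Over pairs of dense regions elsewhere, the correlation of their log2 fold changes with 10 nM at 6 h was 0.41 for pairs up to 2 kb apart (266 pairs), 0.39 from 2 to 5 kb (297), 0.28 from 5 to 10 kb (460) and 0.17 from 10 to 20 kb (179). Where both of a pair were called, they shared a direction in 33 of 39 pairs up to 2 kb apart and in 15 of 22 pairs 10 to 20 kb apart. The correlations at 18 h were 0.32, 0.33, 0.21 and 0.09 over the same distances, so the nearest pairs were no more alike than those 2 to 5 kb apart. Both called, pairs at 18 h shared a direction in 13 of 18 up to 2 kb apart, 24 of 32 from 2 to 5 kb and 11 of 17 from 10 to 20 kb. Among regions elsewhere that were not dense, the correlations at 6 h were 0.26, 0.16, 0.13 and 0.09 over the same distances. Where both of such a pair were called at 6 h, 79.8% shared a direction up to 2 kb apart. From 10 to 20 kb, 67.9% did. The dense pairs stood at 84.6 and 68.2%. At 18 h the pairs that were not dense stood at 79.9% up to 2 kb and 72.9% from 2 to 5 kb. They stood at 65.4% from 10 to 20 kb. Dense pairs were below this up to 2 kb (72.2%) and from 10 to 20 kb (64.7%), and above it from 2 to 5 kb. These are descriptions: pairs of a cluster share regions, and all share the same libraries.

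The direction of change went with a member's rank in its cluster. Members were ranked by their vehicle level at the other time, so that the ranking used none of the vehicle libraries in the comparison. In the 87 clusters elsewhere with at least 3 dense regions, the weakest member was higher with 10 nM at 6 h in 22 clusters and lower in 6, and the strongest was higher in 6 and lower in 18. At 18 h the weakest was higher in 17 and lower in 3, and the strongest was higher in 11 and lower in 13. The median log2 fold change at 6 h was 0.40 for the weakest members and -0.22 for the strongest. The median level behind the ranks was 1.17 CPM for the weakest and 10.1 CPM for the strongest. All groups share a single list of regions, so a region weak with vehicle may be in it because it was open with R5020. Ranking by the other time does not remove this, and its part in the order was not tested. Regions elsewhere that were not dense were split by their mean level over all 18 libraries. These include the libraries compared, so the split is not on the same basis as the ranks. In the lowest quartile of mean level 20.2% were higher and 3.002% lower with 10 nM at 6 h. In the highest quartile 10.1% were higher and 12.8% lower.

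The cluster with the most higher calls at 6 h also had 4 lower calls at 18 h. It spans chr15:99394180-99421815 and holds 13 dense regions. With 10 nM at 6 h, 6 of its regions were higher and 1 was lower; at 18 h, 3 were higher and 4 were lower. Its summed level at 6 h was 145, 162 and 165 CPM with 10 nM, against 143, 120 and 116 CPM with vehicle. The sum at 18 h was 102, 74.9 and 65.2 CPM with 10 nM, against 117, 112 and 93.3 CPM with vehicle. The 10 nM libraries were all above the vehicle libraries at 6 h, and at 18 h the groups overlapped; neither sum passed the test (log2 fold change 0.32 ± 0.20 and -0.41 ± 0.20, adjusted p = 0.274 and 0.175).

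Within it, the region chr15:99415682-99416331 was open at 17.1, 19.6 and 19.9 CPM with 10 nM at 6 h, against 7.88, 4.199 and 6.15 CPM with vehicle. Levels at 18 h were 6.91, 5.23 and 3.73 CPM with 10 nM, against 6.08, 4.32 and 5.36 CPM with vehicle. The groups stood apart at 6 h and overlapped at 18 h. The log2 fold change was 1.66 ± 0.24 at 6 h (adjusted p = 3.51e-05, edgeR's quasi-likelihood test) and 0.04 ± 0.24 at 18 h (adjusted p = 0.933). The difference between these responses did not pass that test (-1.62 ± 0.34, adjusted p = 0.161); DESeq2 gave an adjusted p of 0.0205 for it, and edgeR with a term for the replicate block 0.0323. This region was singled out after those values were seen.

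In the same cluster, chr15:99420347-99420677 was among the 5 largest losses at 18 h, with 0.657, 1.31 and 0.746 CPM with 10 nM, against 3.23, 3.04 and 2.83 CPM with vehicle. The log2 fold change was -1.80 ± 0.38 at 18 h (adjusted p = 0.00164, edgeR's quasi-likelihood test), and -0.55 ± 0.33 at 6 h, which did not pass. The strongest region of the cluster, chr15:99395487-99397115 at a mean of 43.6 CPM in vehicle cells of 6 h, was lower with 10 nM at both times (-0.84 and -1.01). The region beside it, chr15:99397359-99397976 at a mean of 4.002 CPM, was higher at 6 h (1.91). Loss and gain thus stood next to each other within the cluster.

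**Figure D4:**
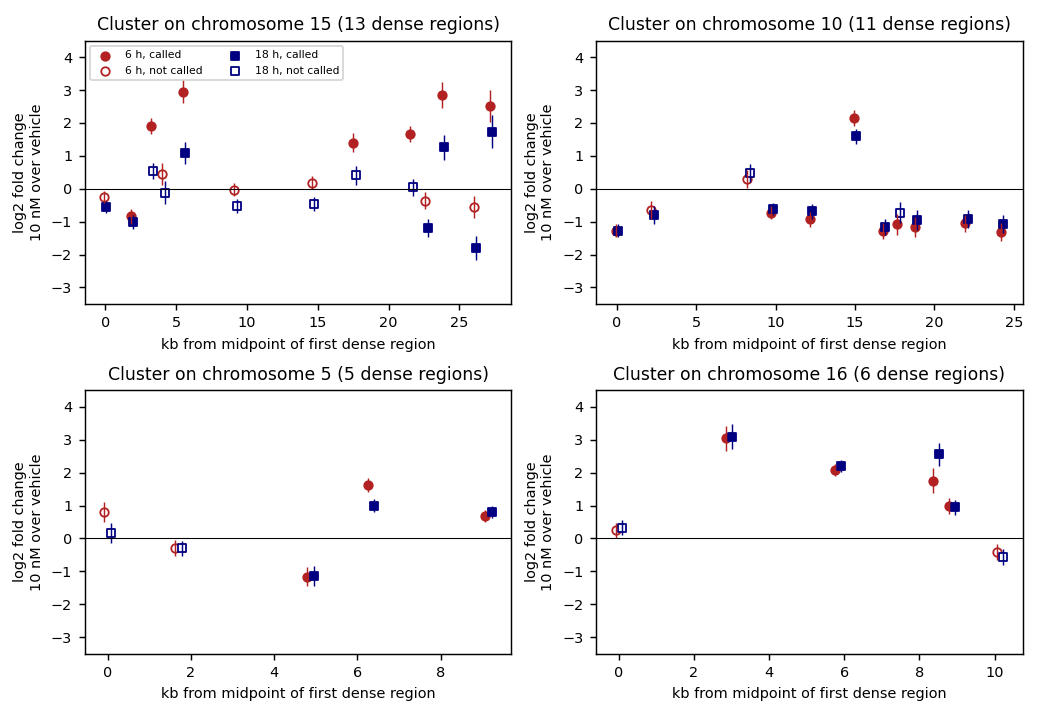
Log2 fold change of 10 nM over vehicle for each dense region of 4 clusters, by distance from the midpoint of the first dense region in kb. Red circles are 6 h and blue squares 18 h, bars are the SE, and filled marks passed the test. In the cluster on chromosome 10, 8 of 11 regions were lower and 1 higher at both times; in the cluster on chromosome 16, 4 of 6 were higher at both times.

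Losses prevailed in the cluster at chr10:8093745-8119391, where 8 of 11 dense regions were lower with 10 nM and 1 was higher, at 6 h and again at 18 h. Its summed level at 6 h was 169, 176 and 169 CPM with 10 nM, against 353, 258 and 219 CPM with vehicle; at 18 h it was 177, 139 and 134 CPM with 10 nM, against 279, 259 and 217 CPM with vehicle. The groups did not overlap at either time. The log2 fold change of the sum was -0.69 ± 0.23 at 6 h (adjusted p = 0.0324) and -0.75 ± 0.23 at 18 h (adjusted p = 0.0260, edgeR's quasi-likelihood test). The call on the sum did not hold under other scaling at 6 h or without single libraries: the adjusted p reached 0.223 at 6 h and 0.109 at 18 h. The single gain in the midst of the losses was chr10:8108640-8109181, with a log2 fold change of 2.15 ± 0.23 at 6 h and 1.59 ± 0.23 at 18 h. The strongest member, chr10:8095345-8097005 at a mean of 134 CPM in vehicle cells of 6 h, was lower at 18 h (-0.79) and not called at 6 h (-0.64).

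Other clusters also lost openness as a group with 10 nM. In the cluster at chr9:12774872-12785857, 6 of 7 dense regions were lower at 6 h and 2 at 18 h. Its regions chr9:12781222-12781900 and chr9:12778300-12778773 were among the 5 largest losses at 6 h, at log2 fold changes of -2.34 ± 0.30 and -2.33 ± 0.32. The first of them stood at 2.67, 2.58 and 2.05 CPM with 10 nM, against 19.3, 9.80 and 8.01 CPM with vehicle. These groups did not overlap, which was a condition for naming it. The summed cluster was lower at 6 h (-0.70, adjusted p = 0.0416 in edgeR's quasi-likelihood test), but this call was lost under other scaling and without single libraries, where the adjusted p reached 0.332.

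In the cluster at chr11:100984025-100993412, 5 of 7 dense regions were lower at 6 h and 3 at 18 h. Its sum stood at 10.9, 10.1 and 9.36 CPM with 10 nM at 6 h, against 28.5, 19.6 and 14.4 CPM with vehicle, and fell by 1.04 ± 0.22 on the log2 scale (adjusted p = 0.00152, edgeR's quasi-likelihood test). The fall at 18 h was 0.87 ± 0.22, a call lost without replicate 2 of 10 nM (adjusted p = 0.0515). In the cluster at chr3:149000651-149010298, 4 of 5 were lower at 6 h, where the sum fell by 0.99 ± 0.19; at 18 h its change was -0.36 ± 0.19 and not called. In the cluster at chr19:12893189-12897605, all 3 dense regions were lower at both times, with changes of the sum of -0.84 ± 0.19 and -0.66 ± 0.19; the call at 18 h was lost without any 1 of 4 libraries, at adjusted p up to 0.0734.

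Gains in every dense region of a cluster were seen at chr9:119102607-119108459, where all 3 were higher with 10 nM at both times. Its sum at 6 h was 19.4, 22.2 and 26.1 CPM with 10 nM, against 3.15, 3.05 and 4.45 CPM with vehicle. The 18 h sum was 13.0, 11.7 and 14.3 CPM with 10 nM, against 2.98, 3.65 and 5.66 CPM with vehicle. The groups stood apart at both times, with folds of 6.40 at 6 h (adjusted p = 1.46e-06, edgeR's quasi-likelihood test) and 3.19 at 18 h. With 0.1 nM the same sum was 3.16, 3.82 and 4.80 CPM at 6 h and was not called (log2 fold change over vehicle 0.15 ± 0.30).

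The cluster at chr1:151969811-151971817 also gained at all 3 dense regions and both times. Its first region was the largest gain at 6 h among dense regions that met the naming conditions. That region, chr1:151969811-151970168, stood at 13.7, 15.5 and 17.4 CPM with 10 nM at 6 h, against 1.68, 0.700 and 1.38 CPM with vehicle. Its 18 h levels were 14.9, 9.73 and 11.3 CPM with 10 nM, against 0.992, 1.70 and 1.89 CPM with vehicle. It was 13.3-fold higher at 6 h and 7.97-fold higher at 18 h (adjusted p = 1.3e-07 and 1.09e-06, edgeR's quasi-likelihood test). With 0.1 nM it stood at 2.36, 2.45 and 1.83 CPM at 6 h, above all 3 vehicle libraries, though the change of 0.92 ± 0.34 was not called.

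Under the same conditions, the next largest gains at 6 h were chr15:42218481-42219179 (log2 fold change 3.46 ± 0.32), chr5:167789198-167789568 (3.07 ± 0.22), chr16:30069393-30069708 (3.04 ± 0.39) and chr14:35843520-35844035 (3.01 ± 0.28). All 4 were also higher at 18 h. With 0.1 nM at 6 h none of the 4 was called, and at 18 h the region on chromosome 14 was, as described below. Under these conditions, the largest losses at 6 h beside those on chromosomes 9 and 21 were chr4:37472803-37473031 (-2.42 ± 0.36) and chr3:46017607-46018416 (-2.38 ± 0.27). The region on chromosome 3 stood at 1.78, 1.29 and 1.58 CPM with 10 nM, against 8.19, 8.88 and 7.12 CPM with vehicle; at 18 h its change was -1.48 ± 0.26, again called.

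Ranked by their sums, the clusters with the largest gains were mostly those with 1 or 2 weak dense regions. The cluster at chr2:74157477-74159539 stood at 8.57, 10.2 and 8.16 CPM with 10 nM at 6 h, against 0.735, 0.478 and 0.648 CPM with vehicle, and was 15.1-fold higher at 6 h and 12-fold at 18 h. The single region chr11:15519688-15520115 stood at 5.43, 5.43 and 5.62 CPM with 10 nM, against 0, 0.699 and 0.729 CPM with vehicle. The single region chr11:83226741-83226984 was weaker still, at 1.08, 0.712 and 0.877 CPM with 10 nM at 6 h, against 0, 0.0736 and 0.162 CPM with vehicle. Its call at 6 h was lost without any 1 of 3 libraries (adjusted p up to 0.101), and it held in every alternative at 18 h. Among the largest summed losses, the single region chr1:164551125-164551422 was lower at both times (-1.83 ± 0.43 and -2.55 ± 0.49), and chr10:82763796-82764060 at 6 h (-1.88 ± 0.41), with -0.50 ± 0.42 at 18 h. The 2-region cluster at chr12:66033659-66034799 was higher at both times (2.09 ± 0.44 and 2.94 ± 0.43).

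At chr16:30066472-30077451 gains lay on a single side of a strong element, the last of the cluster, which was not called. Of its 6 dense regions, 4 were higher with 10 nM at both times. Its strongest region by far, chr16:30076097-30077451 at a mean of 99.99 CPM in vehicle cells of 6 h, was not called at either time (-0.40 ± 0.24 and -0.56 ± 0.24). The sum of the cluster was likewise not called (0.21 ± 0.22 and 0.28 ± 0.22). Its region chr16:30069393-30069708 stood at 7.31, 8.19 and 8.11 CPM with 10 nM at 6 h, against 0.945, 0.773 and 1.21 CPM with vehicle. These groups did not overlap, which was a condition for naming that region. At 18 h chr16:30074910-30075230 was among the 5 largest gains (2.55 ± 0.36).

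Gains and losses lay side by side in several clusters. At chr7:5457004-5470095, 2 of 7 dense regions were higher and 2 lower with 10 nM at 6 h, and 1 was higher and 2 lower at 18 h. There the first region, chr7:5457004-5459019 at a mean of 90.8 CPM in vehicle cells, changed by -1.22 ± 0.20 at 6 h, and its neighbour chr7:5461618-5461876 at a mean of 3.51 CPM by 1.78 ± 0.28. At chr8:81940953-81947762, 1 of 4 was higher and 1 lower at 6 h, and the sum was higher (0.58 ± 0.17), a call lost without replicate 3 of 10 nM or of vehicle. At chr15:89658889-89665973, 1 of 3 was higher and 1 lower at 18 h, and the sum was lower (-0.80 ± 0.20, adjusted p = 0.00671 in edgeR's quasi-likelihood test). At chr22:46501236-46512784, by contrast, 4 of 7 were higher and 0 lower at 6 h; the sum was higher by 0.86 ± 0.26, a call lost without replicate 1 of 10 nM or vehicle replicate 1 or 2.

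A graded loss over the doses was measured at chr21:41696319-41697175. With 10 nM it was the largest loss at both times among dense regions that met the naming conditions. At 6 h it stood at 24.9, 17.0 and 9.63 CPM with vehicle, 6.97, 5.19 and 6.05 CPM with 0.1 nM and 1.45, 1.56 and 0.644 CPM with 10 nM. At 18 h it stood at 18.5, 15.8 and 11.4 CPM with vehicle, 8.70, 5.32 and 4.37 CPM with 0.1 nM and 2.26, 1.14 and 1.68 CPM with 10 nM. The 3 groups did not overlap at either time, which was a condition for naming this region in these comparisons. Relative to vehicle, 10 nM was 14.4-fold lower at 6 h (adjusted p = 5.08e-07, edgeR's quasi-likelihood test) and 8.59-fold lower at 18 h. Relative to 0.1 nM, 10 nM was 5.12-fold lower at 6 h and 3.52-fold lower at 18 h, both called.

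The step between vehicle and 0.1 nM at this region rested on thinner evidence. The log2 fold change was -1.49 ± 0.34 at 6 h (adjusted p = 0.0291, edgeR's quasi-likelihood test) and -1.29 ± 0.34 at 18 h (adjusted p = 0.0455), but these calls were lost without single libraries, with adjusted p up to 0.229 at each time. The call at 18 h was also lost with RLE scaling (DESeq2's size factors) and without the filter on low counts. Its neighbour in the same cluster, chr21:41705689-41706372, changed with 10 nM by -2.06 ± 0.28 at 6 h and -1.60 ± 0.28 at 18 h, and with 0.1 nM by -1.08 ± 0.27 at 6 h, which did not pass (adjusted p = 0.0514). The sum of the 4 dense regions of this cluster was lower with 10 nM (-2.14 ± 0.25 at 6 h) and with 0.1 nM (-1.20 ± 0.24 at 6 h, -0.91 ± 0.24 at 18 h); the calls with 0.1 nM were lost without single libraries, and the one at 18 h also with RLE scaling.

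The lower dose gave the larger change from vehicle at chr5:35205462-35206120, which was most open with 0.1 nM. At 6 h it stood at 5.78, 5.30 and 4.78 CPM with vehicle, 21.003, 14.7 and 19.8 CPM with 0.1 nM and 7.73, 8.33 and 9.28 CPM with 10 nM. At 18 h it stood at 4.66, 4.06 and 4.42 CPM with vehicle, 20.05, 18.04 and 15.8 CPM with 0.1 nM and 8.22, 7.44 and 7.18 CPM with 10 nM. The 3 groups did not overlap at either time, and the order of doses was the same at both. For 0.1 nM against vehicle, the lack of overlap was a condition for naming this region. Relative to vehicle, 0.1 nM was 3.51-fold higher at 6 h and 4.11-fold higher at 18 h (adjusted p = 1.21e-05 and 3.35e-06, edgeR's quasi-likelihood test), and 10 nM was 1.60-fold and 1.74-fold higher. Set directly against 0.1 nM, 10 nM had log2 fold changes of -1.13 ± 0.17 at 6 h and -1.24 ± 0.18 at 18 h, both called.

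It is the last of 5 dense regions at chr5:35196312-35206120, and the others did not share this order. Its neighbour chr5:35202515-35203419 was higher with 10 nM (1.62 ± 0.20 at 6 h) and not with 0.1 nM (-0.06 ± 0.20), while chr5:35201332-35201693 was lower with 10 nM (-1.16 ± 0.29) and not called with 0.1 nM (-0.11 ± 0.28). These 3 neighbouring regions were thus called in different sets of comparisons, the same sets at both times. The sum of the cluster was higher with 10 nM at 6 h (0.70 ± 0.17) and with 0.1 nM at 18 h (0.71 ± 0.17).

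**Figure D5:**
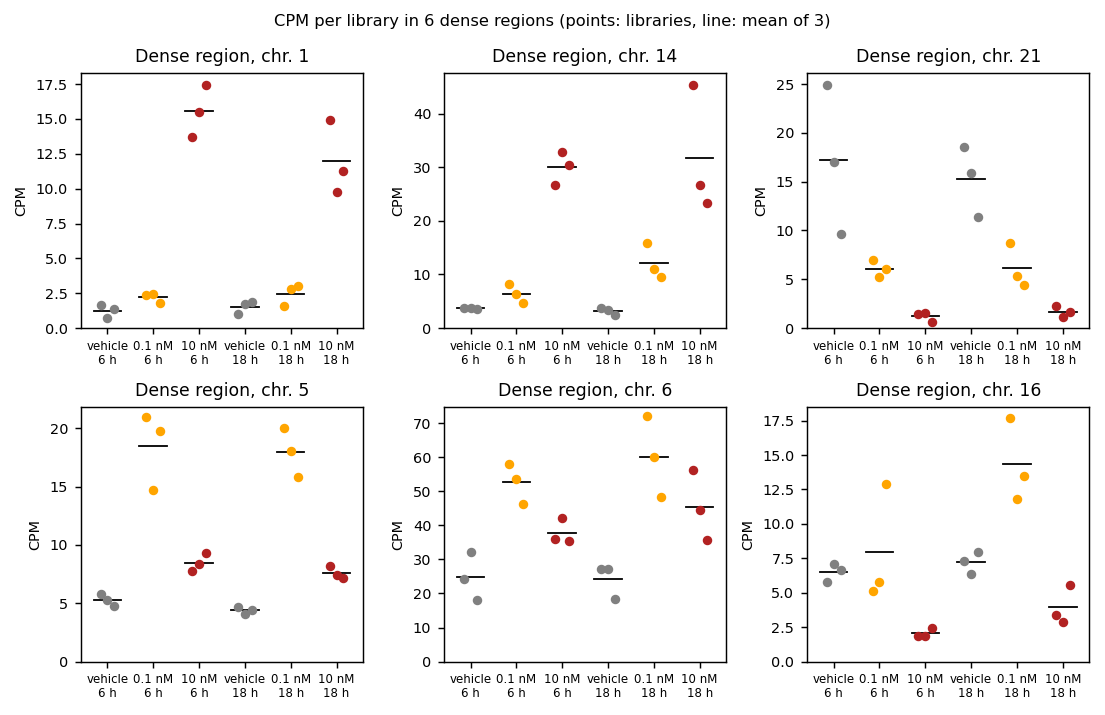
CPM in each library for 6 dense regions, in the order vehicle, 0.1 nM and 10 nM at 6 h and then at 18 h; points are libraries and lines group means of 3. The regions on chromosomes 1 and 14 were highest with 10 nM, and the region on chromosome 21 was lowest with 10 nM. The regions on chromosomes 5, 6 and 16 had their highest mean with 0.1 nM.

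A region with its highest mean at 0.1 nM was also measured at chr16:82073833-82074379, which was called in comparisons with 10 nM and not for 0.1 nM against vehicle. Its levels at 18 h were 7.33, 6.33 and 7.96 CPM with vehicle, 17.7, 11.8 and 13.5 CPM with 0.1 nM and 3.36, 2.86 and 5.59 CPM with 10 nM. The groups did not overlap, which for 10 nM against 0.1 nM was a condition for naming this region. Set against 0.1 nM, 10 nM was 3.71-fold lower at 18 h and 3.81-fold lower at 6 h (adjusted p = 0.000414 and 0.000153, edgeR's quasi-likelihood test). Set against vehicle, 0.1 nM did not pass at 18 h (adjusted p = 0.0879, with 0.1 nM libraries all above the vehicle libraries), and 10 nM was lower at 6 h (-1.65 ± 0.32) and at 18 h (-0.89 ± 0.31). The call on 10 nM against vehicle at 18 h was lost without any 1 of 5 libraries, with adjusted p up to 0.174.

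At chr6:44026138-44027159 the levels at 6 h were 24.4, 32.1 and 18.2 CPM with vehicle, 58.2, 53.6 and 46.3 CPM with 0.1 nM and 36.1, 42.1 and 35.4 CPM with 10 nM. Relative to vehicle, 0.1 nM was 2.11-fold higher at 6 h (adjusted p = 0.0261, edgeR's quasi-likelihood test), a call lost without any 1 of 4 libraries (adjusted p up to 0.130), and 2.48-fold higher at 18 h. With 10 nM the change was 0.60 ± 0.24 at 6 h, not called, and 0.91 ± 0.24 at 18 h, called. The difference between the doses was not called at either time (-0.48 ± 0.24 and -0.40 ± 0.24).

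Both doses lay above vehicle at chr10:79625323-79626107, with 14.7, 12.6 and 9.96 CPM with vehicle, 22.04, 23.3 and 24.9 CPM with 0.1 nM and 25.9, 27.4 and 30.3 CPM with 10 nM at 6 h. All treated libraries were above all vehicle libraries, and those with 10 nM just above those with 0.1 nM. For 0.1 nM against vehicle, the lack of overlap was a condition for naming this region. The log2 fold change of 10 nM over 0.1 nM was 0.25 ± 0.20 at 6 h and 0.05 ± 0.20 at 18 h, neither called, and the change of 0.1 nM over vehicle was 0.92 ± 0.20 and 1.34 ± 0.20. The call at 6 h was lost under other scaling and without single libraries (adjusted p up to 0.123). At chr17:57929054-57929698 the levels at 18 h were 5.43, 5.51 and 4.71 CPM with vehicle, 27.6, 25.7 and 11.3 CPM with 0.1 nM and 30.2, 19.3 and 15.8 CPM with 10 nM, so that the doses overlapped. There 10 nM over 0.1 nM was 0.02 ± 0.27 at 18 h but 1.23 ± 0.27 at 6 h, where it was called.

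A loss of like size with both doses was measured at chr10:112582256-112583626. At 18 h it stood at 17.9, 14.1 and 14.7 CPM with vehicle, 6.94, 8.09 and 6.81 CPM with 0.1 nM and 6.91, 6.87 and 8.76 CPM with 10 nM. The treated libraries were all below the vehicle libraries, which for 0.1 nM was a condition for naming this region. The changes from vehicle were -1.10 ± 0.21 with 0.1 nM and -1.06 ± 0.21 with 10 nM, both called. At 6 h the change with 0.1 nM was -0.78 ± 0.21 and did not pass (adjusted p = 0.0810, edgeR's quasi-likelihood test).

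A graded gain was measured at chr14:35843520-35844035. At 18 h it stood at 3.67, 3.45 and 2.53 CPM with vehicle, 15.9, 11.1 and 9.53 CPM with 0.1 nM and 45.4, 26.7 and 23.3 CPM with 10 nM. The 3 groups did not overlap, which for each dose against vehicle was a condition for naming this region. It was 9.89-fold higher with 10 nM and 3.79-fold higher with 0.1 nM than with vehicle, and 2.61-fold higher with 10 nM than with 0.1 nM, all called. Smaller regions called with 0.1 nM at 6 h were chr22:46501236-46501652 (1.74 ± 0.28) and chr22:29737136-29737296 (1.64 ± 0.38); the call on the second was lost without any 1 of the 6 libraries compared. At 18 h the region chr5:142258207-142258474 was higher with 0.1 nM (1.42 ± 0.31), a call lost without replicate 3 of 0.1 nM or without vehicle replicate 1. The cluster at chr3:111309095-111310852 was higher with 0.1 nM at 6 h by its sum (0.96 ± 0.23) with 0 of its 2 regions called, and that call too was lost with RLE scaling and without any 1 of the 6 libraries (adjusted p up to 0.231).

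Among the pericentromeric regions, the few calls came from few places. Of the 8 calls with 10 nM at 6 h, 3 lay in the cluster on chromosome 1 named above, 3 in 2 clusters of chromosome 20 and 2 in the cluster at chr21:9834805-9855454. The region chr20:30258078-30258687 had the largest change of them. It stood at 15.9, 15.8 and 20.05 CPM with 10 nM at 6 h, against 1.16, 1.99 and 3.48 CPM with vehicle, and at 17.1, 10.7 and 8.48 CPM with 10 nM at 18 h, against 2.33, 1.49 and 3.71 CPM with vehicle. The groups stood apart at both times; the log2 fold changes were 2.95 ± 0.38 and 2.29 ± 0.37. With 0.1 nM it stood at 1.57, 2.68 and 1.69 CPM at 6 h, and 10 nM was 8.89-fold higher than 0.1 nM.

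The cluster at chr21:9834805-9855454 was the only one of the 38 pericentromeric clusters whose sum was called. With 10 nM at 18 h, 7 of its 10 dense regions were higher, with log2 fold changes between 1.18 and 1.67. Its sum stood at 403, 216 and 219 CPM with 10 nM, against 145, 129 and 168 CPM with vehicle, without overlap, and rose by 0.92 ± 0.28 (adjusted p = 0.0211, edgeR's quasi-likelihood test). The highest value, 403 CPM, is that of replicate 1, the library with the most counts; without it, or without vehicle replicate 1 or 2, the call was lost, with adjusted p up to 0.105. At 6 h the sum stood at 240, 202 and 238 CPM with 10 nM, against 257, 141 and 173 CPM with vehicle, and did not pass (0.25 ± 0.27).

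Some clusters outside the 2 Mb limit spread between libraries as widely as the pericentromeric ones. At chr2:89855502-89876013, with 11 dense regions, the summed level was 204, 191 and 202 CPM with 10 nM at 6 h, against 72.0, 162 and 372 CPM with vehicle, and the mean SD of log2 CPM within groups was 0.90. At chr3:75733238-75749142, with 9 dense regions, that SD was 0.71. At chr15:99394180-99421815, with 13, it was 0.16. These 3 are among the 7 largest clusters elsewhere, chosen after their positions had been seen.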

How the data were processed

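Omni-ATAC-seq libraries of T47D cells, 3 in each of 6 groups of dose and time, were assigned to groups by the labels' time and dosage. The authors deposited 1 table of raw read counts, not normalized, with a row for each region. The submitters' processing notes name BWA, MACS2 and the build hg19. Their versions, the filters on reads, any Tn5 shift and how regions were merged: not given in the sources used here. All libraries share a single list of regions. Whether starts count from 0 or 1 is not stated. Totals in regions ran from 8756311 to 39984217 counts per library. Gene names and sequences were not analysed here, because the annotation at hand is of another build.

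Counts were tested in R 4.3.3 with edgeR 4.0.16: filterByExpr (minimum count 10, minimum total 15) kept 132304 of 132604 regions, TMM factors scaled the libraries, and glmQLFit and glmQLFTest fitted all 18 libraries together, each group having its own mean, which left 12 residual degrees of freedom. For clusters, the counts of their dense regions were summed to 1 row and the whole table was fitted again. Regions were called where p, adjusted in each comparison after Benjamini and Hochberg, was below 0.05. The SE is the log2 fold change divided by the square root of F; CPM is relative to the TMM-scaled library size, and log2 CPM was computed with 2 as its prior count. Simulated counts with known changes were used to check these steps.

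Alternatives were DESeq2 1.42.0 with its Wald test, DESeq2's size factors (RLE) in edgeR, no filter, a replicate block, and leaving out each library of the 2 groups compared. Named regions are, for each comparison with vehicle, the 5 called regions that rose most and the 5 that fell most, among those whose groups did not overlap and whose mean log2 CPM was 1 or more, and 3 each way for 10 nM against 0.1 nM; named clusters are the largest, those with the largest summed changes and those with most calls. The members, these rules and the comparisons were chosen with earlier results of these data known.

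The labels do not say whether a group's 3 libraries are separate cultures; p-values therefore measure only the spread among the libraries, and part of it may be technical. Pairs of libraries of a group differed beyond sampling noise (chi-square per degree of freedom 3.28 to 27.8), so none was counted as a repeat. Same-numbered libraries deviated together, with a correlation over 0.1 in all 3 pairs, for 10 nM and 0.1 nM at 18 h (0.60, 0.19 and 0.45) and for vehicle at 18 h and 6 h (0.32, 0.12 and 0.45). This pairing was seen in the data and not in the labels. The other comparisons did not meet this limit in all 3 pairs. At 18 h the correlations were 0.448, 0.098 and 0.456 for 0.1 nM and vehicle, and 0.357, 0.014 and 0.353 for 10 nM and vehicle.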

Additional observations from a re-analysis of the deposited data

How the results depend on the processing

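With 0.1 nM at 6 h the balance of calls turned without vehicle replicate 3, to 3 higher and 4 lower dense regions and 0 higher and 3 lower clusters, and for clusters also without vehicle replicate 2, to 0 higher and 1 lower. For 10 nM against 0.1 nM at 18 h it was 26 higher and 27 lower dense regions without replicate 2 of 0.1 nM. The cause of the moves was not tested. With DESeq2, dense regions higher and lower with 0.1 nM than with vehicle at 6 h numbered 10 and 4, those higher at 18 h 23, those with a changed response to 10 nM 1, and clusters lower with 0.1 nM at 6 h 2. Under the replicate block the same counts were 13, 5, 28, 1 and 2; clusters higher with 0.1 nM at 6 h numbered 6 and clusters lower with 10 nM at 18 h 25. For 10 nM against 0.1 nM at 18 h, where the data pair the libraries, the block gave 66 higher and 51 lower dense regions; no other block count moved by over 1.5 times. With RLE scaling, and also without the filter, 1 dense region was lower with 0.1 nM at 18 h, and with RLE 1 cluster.

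Without 1 library, dense regions higher and lower numbered 88 to 128 and 50 to 90 (10 nM against vehicle, 6 h), 64 to 94 and 39 to 64 (18 h), 2 to 4 and 0 to 4 (0.1 nM, 6 h), 7 to 16 and 1 to 2 (18 h), 76 to 120 and 26 to 45 (10 nM against 0.1 nM, 6 h), and 25 to 54 and 16 to 35 (18 h); the response to 10 nM gave 0 to 1. Clusters numbered 35 to 44 and 11 to 22 (10 nM, 6 h), 24 to 33 and 9 to 20 (18 h), 0 to 1 and 0 to 3 (0.1 nM, 6 h), and 4 to 8 and 0 to 2 (18 h). Of the 124 higher and 82 lower calls with 10 nM at 6 h, 80 and 41 held in all 10 alternatives; at 18 h, 56 of 103 and 30 of 60 did. Of 86 called values of named regions and clusters, 62 held in every alternative. Beside the losses given with the results, the calls on the sums at chr6:44010755-44027159 and chr10:79625323-79626820 (0.1 nM, 6 h) and chr10:112578646-112583626 and chr17:57929054-57931142 (0.1 nM, 18 h) were each lost without any 1 of 5, 3, 2 and 4 libraries, at adjusted p up to 0.158, 0.0803, 0.0667 and 0.106. The median SE was 0.58 in pericentromeric dense regions and 0.33 elsewhere, although the pericentromeric ones had the higher median level; the part of depth in the SE was not tested.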

Other observations

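Chromosome Y and the mitochondrial genome lie outside the rule; they held 192 regions of the table, and 80 of these had at least 6 neighbours within 10 kb. They were not analysed here.

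The strongest cluster elsewhere was chr2:133011917-133039228, with 14 dense regions. Its summed level at 6 h was 2166, 1487 and 1478 CPM with 10 nM, against 3477, 1652 and 2574 CPM with vehicle. The groups overlapped, and the log2 fold change of -0.59 ± 0.34 did not pass edgeR's quasi-likelihood test (adjusted p = 0.231).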
